A study of Mus musculus with 12 samples.

Results

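Sos1 and Sos2 were both deleted in the cultures described here, which were compared with wild-type (WT) cultures. The sample titles assigned 3 arrays to Sos1/2DKO and 3 to WT, so the comparison uses 6 of the 12 arrays of the series, and the other 6 are from Sos1KO and Sos2KO cultures. All cultures were low-passage primary embryonic fibroblasts of strain C57/BL6, taken at embryonic day 13.5, grown in DMEM with 10% serum and harvested before confluence. Every group, WT included, had received 4-hydroxytamoxifen (4OHT) for 12 days. The compound activates Cre fused to a mutant oestrogen receptor, and both groups share the exposure. The labels name neither the Cre driver nor the alleles, and they do not tie a culture to an embryo or litter, so p-values reflect variation among the cultures at hand.

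SOS1 and SOS2 are guanine nucleotide exchange factors. The adaptor GRB2 brings them to activated growth factor receptors, where they load RAS with GTP. RAS then activates the kinases RAF, MEK and ERK, and ERK induces transcription factors, its own feedback inhibitors and, in fibroblasts exposed to serum, genes needed to enter the cell cycle.

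Levels are log2 values from RMA, a method that corrects, normalizes and summarises the probes of a probe set, so a difference of 1 is a 2-fold change. Correlations over genes ran from 0.960 to 0.973 between Sos1/2DKO arrays and from 0.986 to 0.990 between WT arrays, and 74.8% of genes had a larger SD in Sos1/2DKO. RMA gives no detection call, and a value was taken as weak where it lay under the 75th percentile of 5222 negative control probe sets on its array, which was 5.08, 5.76 and 5.52 on the Sos1/2DKO arrays and 5.35, 5.19 and 5.61 on the WT arrays. The Y-linked genes Eif2s3y, Kdm5d and Uty averaged 6.12, 8.10 and 6.87 on the Sos1/2DKO arrays and 7.33, 3.59 and 3.71 on the WT arrays, so they were expressed on all 3 Sos1/2DKO arrays and on WT replicate 1 alone. Bulk RNA cannot tell fewer cells of a type from less RNA per cell.

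Genes were called at a limma adjusted p under 0.05 (Benjamini-Hochberg over 19505 genes). The Sos1/2DKO cultures differed from the WT cultures in 1158 genes (5.94%), with 347 higher (1.78%) and 811 lower (4.16%). The rises reached further than the falls. Of the higher genes, 15 rose by at least 3 log2 units, against 2 of the lower genes, Rgs16 and Tfrc, while the median change was 1.07 among the higher and -1.05 among the lower genes. The higher genes were weak in WT more often, with 51 under the control percentile on all 3 WT arrays, and 38 of the lower genes were under it on all 3 Sos1/2DKO arrays, so the size of those changes is uncertain. The median log2 fold change over all genes was 0.055. The count of calls rested on single arrays: it was 706 without Sos1/2DKO replicate 3 and 268, 622 and 487 without WT replicates 1, 2 and 3. Called with all arrays and without each of the 6 in turn were 233 genes, 59 higher and 174 lower. Among the 264 called genes covered by the lists and the largest changes, 75 were in that set, and they are described below as held without any 1 array. List counts are those with all arrays, and most counts under 10 changed when an array was left out. With a term for Y-linked expression in the fit, 404 genes were called.

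**Figure D1:**
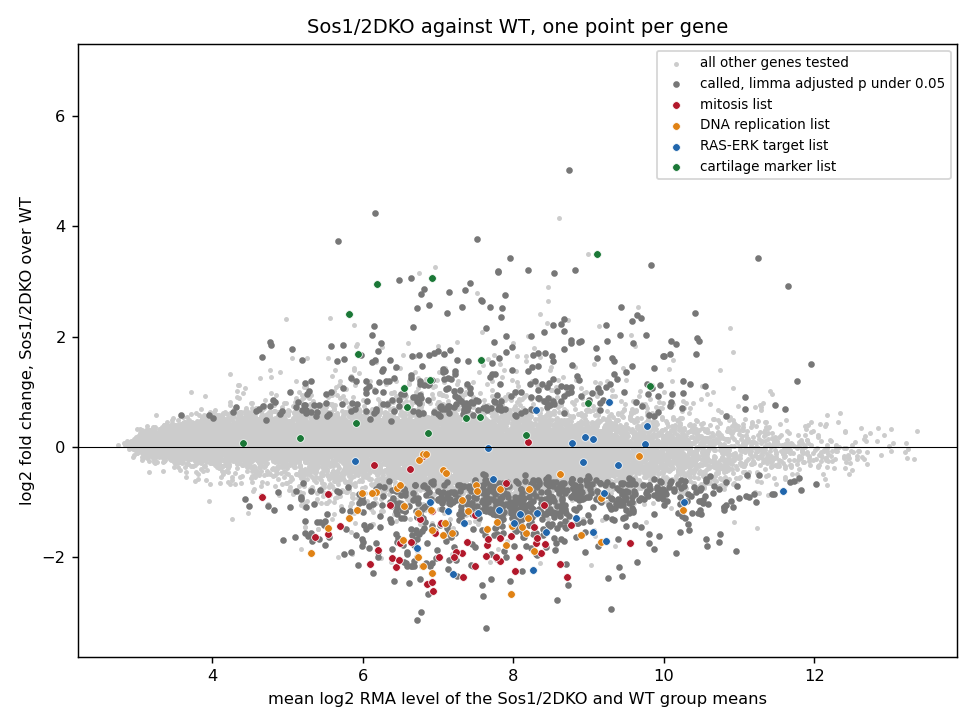
Each point is a gene, with its mean log2 RMA level on the x axis and its log2 fold change, Sos1/2DKO over WT, on the y axis. Dark grey points were called, coloured points are members of 4 lists whether called or not, and the mitosis and replication members lie below 0 with 1 exception among the mitosis genes.

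The deleted genes were lower in the double knockout, and some other members of the RAS machinery were called. Sos1 stood at 7.20, 7.96 and 7.39 on the Sos1/2DKO arrays and at 8.91, 9.02 and 9.32 on the WT arrays (log2 fold change -1.56, SE 0.22, limma adjusted p = 0.00507). Sos2 stood at 7.66, 8.03 and 7.91 in Sos1/2DKO, against 8.65, 8.74 and 9.23 in WT (-1.01, SE 0.18, adjusted p = 0.00956). The groups did not overlap for either gene, yet signal well above the control percentile remained in all 3 Sos1/2DKO arrays, and probe positions within the genes were not analysed here. Of the 15 measured RAS exchange factors, Sos1 and Sos2 were the only 2 called.

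Among 13 RAS, RAL and RAP GTPases, 2 fell, with a list median of -0.41. Nras, a classical RAS protein, was at 7.16, 7.59 and 6.99 in Sos1/2DKO and at 8.50, 8.44 and 8.45 in WT, a fall of 2.33-fold (-1.22, SE 0.20, limma adjusted p = 0.00692) that held without any 1 array. The other called member was Rras2, a RAS-related GTPase (-1.20, SE 0.26). Of 11 GTPase-activating proteins, which switch RAS off, Rasa1 (-1.39) and Spred2, an adaptor that recruits neurofibromin (-1.34), fell. Of 18 adaptors, 1 rose: Gab1, a docking protein for receptor signalling, was at 7.79, 8.31 and 7.68 in Sos1/2DKO and at 6.12, 6.51 and 7.0 in WT (1.38, SE 0.28, adjusted p = 0.0149). Of 13 RAF, MEK, ERK and RSK kinases, Rps6ka3, which encodes RSK2, was called (-1.06, SE 0.28). The share called was 15.4% of the GTPases and 18.2% of the GTPase-activating proteins. It was 5.56% of the adaptors and 7.69% of the kinases, against 5.94% of all genes. Of the 6 settings that leave out an array, Gab1 was called in 5, Rasa1 in 4, Rras2 and Spred2 in 3 each and Rps6ka3 in 1. Without WT replicate 1 the adjusted p of Rras2, Rasa1 and Gab1 was 0.0964, 0.0646 and 0.0752. Without WT replicate 3 that of Spred2 and Rps6ka3 was 0.131 and 0.146.

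Receptors and ligands changed in both directions. Of 37 receptor tyrosine kinases, 2 rose and 3 fell (13.5% called, against 5.94% of all genes). Fgfr2, a fibroblast growth factor receptor, was at 9.76, 10.06 and 9.37 in Sos1/2DKO and at 7.64, 7.38 and 7.85 in WT (2.10, SE 0.46, limma adjusted p = 0.0195), and Fgfr3 rose by 1.22. Axl, the receptor for the ligand GAS6, stood at 10.05, 9.37 and 9.76 in Sos1/2DKO and at 11.63, 11.33 and 11.21 in WT (-1.66, SE 0.27, adjusted p = 0.00652). The hepatocyte growth factor receptor Met (-1.21) and the ephrin receptor Epha2 (-1.53) also fell. Among 34 growth factor ligands, 3 rose and 0 fell (8.82% called). Fgf18 was at 8.62, 9.54 and 9.15 in Sos1/2DKO and at 6.36, 6.37 and 7.05 in WT, a 5.69-fold rise (2.51, SE 0.34, adjusted p = 0.00475), and Fgf5 (0.97) and the platelet-derived growth factor Pdgfd (1.33) rose as well. Axl and Fgf18 held without any 1 array, whereas the other 6 lost their call without WT replicate 1 or another array.

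Several transcripts that ERK signalling induces were lower. Of 30 RAS-ERK target and feedback genes, 10 fell (33.3%), 0 rose and 20 did not pass the threshold (median -0.99), and 16 had arrays that did not overlap between the groups, as 24.5% of all genes did. The list mean was 8.08, 8.20 and 7.88 on the Sos1/2DKO arrays and 8.83, 8.90 and 8.82 on the WT arrays. Every Sos1/2DKO array lay below every WT array.

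The falls covered the feedback inhibitors of the pathway and transcription factors downstream of ERK. Dusp6, a phosphatase that inactivates ERK, was at 6.84, 8.0 and 6.61 in Sos1/2DKO and at 9.27, 9.51 and 9.34 in WT (-2.22, SE 0.34, limma adjusted p = 0.00582). The related phosphatases Dusp4 (5.46, 6.10 and 6.58 in Sos1/2DKO, against 8.77, 8.25 and 8.03 in WT) and Dusp5 (-1.54, SE 0.31) fell too. So did the receptor signalling inhibitors Spry2 (-1.22, SE 0.23) and Spry4 (-1.0, SE 0.24). Myc, a driver of growth and proliferation, was at 8.29, 8.26 and 8.62 in Sos1/2DKO, against 10.14, 10.18 and 9.93 in WT (-1.70, SE 0.27, adjusted p = 0.00652). The AP-1 subunit Fosl1 was at 7.81, 6.84 and 7.31 in Sos1/2DKO and at 8.99, 8.35 and 8.75 in WT (-1.38, SE 0.24). The ETS factors Etv4 (-1.16) and Elk3 (-0.83) and the pleckstrin-homology-like gene Phlda1 (-1.82, weak on 2 of 3 Sos1/2DKO arrays) completed the 10. Outside the list, Errfi1, an inhibitor of the EGF receptor, was among the 20 largest falls, with 7.92, 8.15 and 6.37 in Sos1/2DKO and 9.84, 10.13 and 9.99 in WT (-2.50, SE 0.43, adjusted p = 0.00738). Dusp6, Fosl1, Myc, Phlda1 and Errfi1 held without any 1 array, and 4 members were called when WT replicate 1 was left out and 6 when WT replicate 2 was. With the Y-linked term 8 were called.

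**Figure D2:**
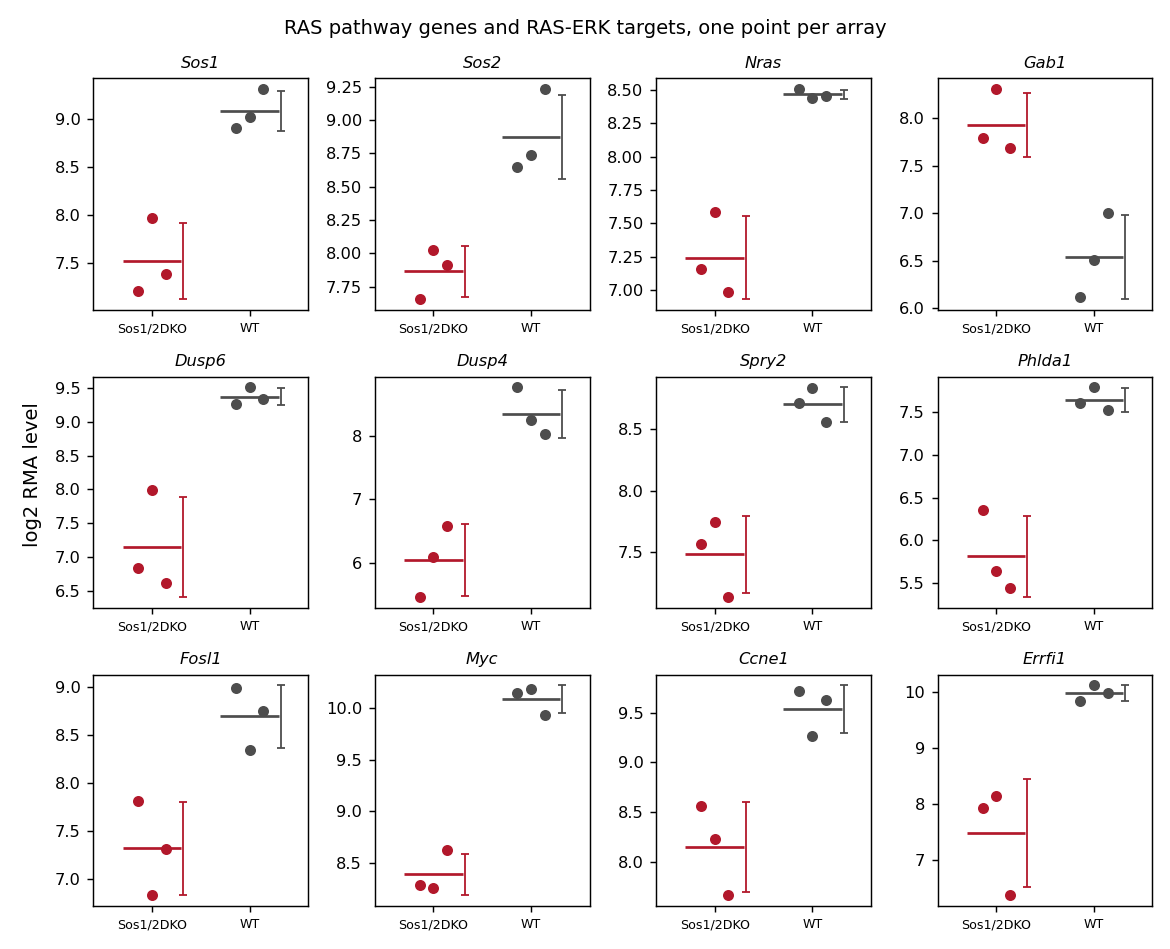
Log2 RMA level of 12 genes on each array, Sos1/2DKO left and WT right in each panel, with the group mean as a horizontal line and its SD as the bar beside it (n = 3). Gab1 is the only one of these genes that was higher in Sos1/2DKO. All 12 were chosen from called genes, and the points of the groups do not overlap in any panel. The same held for 1156 of the 1158 called genes and for 24.5% of all genes.

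Most measured replication and mitosis genes fell in the double knockout. Of 46 replication and licensing genes, 35 fell (76.1%), 0 rose and 11 did not pass (median -1.17), and all 46 were below 0. Of 52 mitosis, kinetochore and cytokinesis genes, 44 fell (84.6%), 0 rose and 8 did not pass (median -1.74), and 51 were below 0. The mean of the mitosis list was 6.47, 6.86 and 5.95 on the Sos1/2DKO arrays and 8.10, 7.66 and 8.42 on the WT arrays. The replication mean was 6.71, 6.96 and 6.55 in Sos1/2DKO and 8.07, 7.65 and 8.08 in WT. The groups stayed apart in both lists, with the smallest gap between Sos1/2DKO replicate 2 and WT replicate 2.

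In cells leaving quiescence these genes are switched on by factors that read short promoter motifs, E2F sites in many replication genes and the CHR, often paired with CCAAT boxes, in many mitotic genes. RefSeq promoter windows of GRCm38.p6, from 250 bases before to 50 after a transcript start, were at hand for 15691 of the genes tested, and 2564 of them have several windows. A gene was counted where any window held a motif on either strand. The CHR, searched as TTTGAA or TTCGAA, was present for 27 of the 38 called mitosis genes with a window (71.1%) and for 19.6% of all genes. An E2F site, searched as TTNNCGC with C or G at each N, was present for 18 of 29 called replication genes (62.1%) and 14.2% of all genes. The CHR was found for 6 of the 29 replication genes (20.7%) and the E2F site for 6 of the 38 mitosis genes (15.8%). CCAAT was present for 68.4% of the mitosis genes, 58.6% of the replication genes and 42.2% of all genes. Over all called lower genes with a window, 27.2% held the CHR and 27.4% an E2F site, against 18.1% and 11.4% of the called higher genes. List members that were not called were not compared, so the list shares describe these genes and not an effect of the knockout. A match describes the letters in the window and is not evidence of binding.

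Among called mitosis genes with a window, the 3 with the smallest adjusted p show how these motifs are placed, and their windows are printed up to 30 bases after the start with CHR and CCAAT matches of either strand in capitals. Nek2 lies at chr1:191821223-191821502 (plus strand), Ttk at chr9:83834439-83834718 (plus strand) and Bub1b at chr2:118597961-118598240 (plus strand).
Nek2: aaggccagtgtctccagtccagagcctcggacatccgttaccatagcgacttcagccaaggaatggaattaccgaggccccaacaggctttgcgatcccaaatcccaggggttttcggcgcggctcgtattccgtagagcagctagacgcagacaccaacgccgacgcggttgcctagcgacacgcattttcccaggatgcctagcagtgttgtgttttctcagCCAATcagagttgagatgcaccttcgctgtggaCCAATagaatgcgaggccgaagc
Ttk: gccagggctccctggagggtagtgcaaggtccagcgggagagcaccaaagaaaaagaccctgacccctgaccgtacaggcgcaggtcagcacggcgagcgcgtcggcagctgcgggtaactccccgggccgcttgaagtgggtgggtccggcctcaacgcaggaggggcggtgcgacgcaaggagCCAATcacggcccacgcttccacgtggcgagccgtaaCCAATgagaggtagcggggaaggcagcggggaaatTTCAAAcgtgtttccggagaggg
Bub1b: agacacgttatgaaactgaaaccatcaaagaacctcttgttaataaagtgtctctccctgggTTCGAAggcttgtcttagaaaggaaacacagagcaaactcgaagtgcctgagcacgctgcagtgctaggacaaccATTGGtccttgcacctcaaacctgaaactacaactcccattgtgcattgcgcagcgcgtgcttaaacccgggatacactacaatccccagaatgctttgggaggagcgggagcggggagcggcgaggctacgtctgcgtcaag

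For the called replication genes with a window, the 3 shown are those with the smallest adjusted p, Dbf4 at chr5:8422687-8422966 (minus strand), Rrm2 at chr12:24708004-24708283 (plus strand) and Uhrf1 at chr17:56303087-56303366 (plus strand). Capitals mark E2F matches, and the Dbf4 window held 0.
Dbf4: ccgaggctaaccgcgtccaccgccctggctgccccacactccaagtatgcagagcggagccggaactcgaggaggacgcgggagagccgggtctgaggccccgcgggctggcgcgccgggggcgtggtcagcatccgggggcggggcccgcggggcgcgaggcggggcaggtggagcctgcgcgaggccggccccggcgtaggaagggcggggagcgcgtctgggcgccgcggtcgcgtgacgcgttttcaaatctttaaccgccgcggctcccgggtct
Rrm2: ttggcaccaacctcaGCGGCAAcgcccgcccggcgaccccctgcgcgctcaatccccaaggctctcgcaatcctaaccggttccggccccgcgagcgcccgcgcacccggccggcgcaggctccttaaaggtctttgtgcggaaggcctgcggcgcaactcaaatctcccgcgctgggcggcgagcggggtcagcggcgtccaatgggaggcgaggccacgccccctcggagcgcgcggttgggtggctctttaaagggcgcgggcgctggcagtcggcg
Uhrf1: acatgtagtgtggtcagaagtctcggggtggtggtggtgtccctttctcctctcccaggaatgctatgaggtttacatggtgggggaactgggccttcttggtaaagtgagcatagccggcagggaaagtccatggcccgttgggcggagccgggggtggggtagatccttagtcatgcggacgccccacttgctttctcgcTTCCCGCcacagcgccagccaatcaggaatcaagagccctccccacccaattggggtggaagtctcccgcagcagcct

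Nek2, a centrosomal kinase, was at 5.84, 6.13 and 5.13 in Sos1/2DKO and at 8.26, 7.39 and 8.79 in WT (-2.45, SE 0.35, limma adjusted p = 0.00507). Ttk, a spindle checkpoint kinase with both motifs in its window, was at 5.27, 5.33 and 5.21 in Sos1/2DKO, against 7.21, 6.67 and 7.51 in WT. Bub1b and Bub1, of the same checkpoint, fell by 2.48 and 2.61 on the log2 scale, with 1 Sos1/2DKO array weak for each. Nek2 was also weak on 1 Sos1/2DKO array, and Ttk on Sos1/2DKO replicates 2 and 3. Other members that fell were the kinases Aurka (-1.97) and Plk1 (-2.36), the cyclin-dependent kinase Cdk1 (-2.06), the kinesin Kif23 (-2.25), the centromeric histone Cenpa (-1.74) and the condensin subunit Ncapg (-2.05). Among the replication genes, Dbf4, the activator of the CDC7 kinase, was at 5.54, 6.31 and 5.31 in Sos1/2DKO and at 7.96, 7.66 and 8.02 in WT (-2.16, SE 0.28, adjusted p = 0.00434). Dbf4 was weak on 1 Sos1/2DKO array. Rrm2, a subunit of ribonucleotide reductase, was at 8.15, 8.46 and 8.30 in Sos1/2DKO and at 10.25, 9.72 and 10.12 in WT (-1.73, SE 0.22). The helicase subunits Mcm2 (-1.29), Mcm3 (-1.44) and Mcm6 (-1.89), the licensing factor Cdt1 (-1.35), the sliding clamp Pcna (-1.14) and the methylated-DNA reader Uhrf1 (-1.44) fell. The counts depended on WT replicate 1, without which 15 mitosis and 12 replication genes were called, at medians of -1.74 and -1.14. Without Sos1/2DKO replicate 3 they were 27 and 23, and without WT replicate 3 they were 21 and 16. With the Y-linked term 27 and 20 were called.

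Some regulators of the step into S phase fell. Of 23 G1 cyclins, kinases, inhibitors and pocket proteins, 6 fell and 0 rose (26.1% called, against 5.94% of all genes). Ccne1, the cyclin that activates CDK2, was at 8.56, 8.23 and 7.66 in Sos1/2DKO and at 9.72, 9.26 and 9.62 in WT (-1.38, SE 0.23, limma adjusted p = 0.00692). Ccne2 (-1.83, weak on 2 of 3 Sos1/2DKO arrays), Cdk2 (-1.0), Cdk6 (-1.26), E2f7 (-0.81) and the repressor E2f8 (-2.16, SE 0.33) also fell. Of 26 DNA repair genes, 6 fell (23.1%), among them the nuclease Exo1 (-1.78) and Brca1 (-1.16), and all 26 were below 0. Of the p53 targets, 20 of 22 did not pass, and the kinases Plk2 (-1.51) and Plk3 (-0.80) fell (9.09% called). Ccne1, E2f8 and Exo1 held without any 1 array, and the G1 list had 2 calls when Sos1/2DKO replicate 1 or 3 or WT replicate 1 or 3 was left out. The repair list then had 2 calls for the first of these arrays and 1 for each of the others.

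Genes of ribosome production and protein synthesis fell by smaller amounts. Of 34 ribosome biogenesis and nucleolar genes, 16 fell (47.1%) and 0 rose, with a median of -0.64. Ddx21, a nucleolar helicase, was at 8.79, 8.67 and 8.78 in Sos1/2DKO, against 9.98, 9.62 and 9.90 in WT (-1.08, SE 0.17, limma adjusted p = 0.00652). The RNA polymerase I subunit Polr1e (-1.04), the growth regulator Pa2g4 (-1.09) and the pseudouridine synthase Dkc1 (-1.55, weak on all 3 Sos1/2DKO arrays) fell in the same way. Of 18 aminoacyl-tRNA synthetases, 8 fell (44.4%) and all 18 were below 0, from -1.50 for Farsb to -0.56 for Kars among the called. The serine synthesis enzymes Psat1 (-1.22) and Phgdh (-0.84) and the mitochondrial enzyme Shmt2 (-1.32) were the 3 of 25 ATF4 response genes that were called. That was 12% of the list, against 5.94% of all genes. The ribosome list had 8 calls without Sos1/2DKO replicate 3 and 5, 10 and 7 without WT replicates 1, 2 and 3, and the synthetases had 2, 0, 3 and 1 in these settings. With the Y-linked term the counts were 7 and 0.

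In the energy lists, 20.8% of glycolysis and hypoxia genes were called, against 5.94% of all genes. Hk2, the hexokinase that commits glucose to the cell, was at 7.90, 7.45 and 7.14 in Sos1/2DKO and at 8.99, 8.76 and 8.97 in WT (-1.41, SE 0.24, limma adjusted p = 0.00701). Of 24 glycolysis and hypoxia genes it was 1 of 4 that fell, with the phosphofructokinase Pfkp (-0.88), the lactate exporter Slc16a3 (-1.41) and the oxygen sensor Egln3 (-1.07), while Car9, a carbonic anhydrase that was weak on all 3 WT arrays, rose by 1.0. None of the 37 subunits of oxidative phosphorylation and none of 21 mitochondrial dynamics genes was called by limma (medians -0.17 and -0.30). Of 23 sterol and fatty acid synthesis genes, Elovl6 was called (-1.09), and 22 were below 0, with a median of -0.40. Hk2 held without any 1 array. Of the 6 settings that leave out an array, Egln3 was called in 5, Slc16a3 in 3, Pfkp in 2, and Car9 and Elovl6 in 1 each.

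Steap1, a metalloreductase of iron and copper uptake, had the smallest adjusted p of all genes, with 5.97, 6.15 and 5.99 in Sos1/2DKO and 8.15, 8.51 and 8.07 in WT (-2.21, SE 0.19, limma adjusted p = 0.000639). Tfrc, the transferrin receptor, was at 4.92, 6.12 and 4.45 in Sos1/2DKO and at 8.43, 8.26 and 8.19 in WT, a fall of 8.76-fold whose size is uncertain because 2 Sos1/2DKO arrays were weak. Both held without any 1 array. Steap2 also fell (-0.94), Heph, a ferroxidase used in iron export, rose (1.38), and 18 of 22 members did not pass. The share called was 18.2%, against 5.94% of all genes.

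A few adhesion and cytoskeletal genes fell. Tagln2, an actin-binding protein, was at 10.0, 9.76 and 9.87 in Sos1/2DKO and at 11.65, 11.62 and 11.49 in WT (-1.71, SE 0.21, limma adjusted p = 0.0039). Ankrd1, a target of the YAP and SRF factors, was at 6.99, 7.25 and 9.24 in Sos1/2DKO and at 11.16, 10.49 and 10.66 in WT (-2.94, SE 0.53). These 2 and the smooth muscle actin Actg2 (-1.58) were the called members of 30 contractile, SRF and YAP target genes (10%). The median of that list was -0.11, or 0.02 with cyclic loess. The integrin subunit Itgb3 (-1.45) and the integrin-linked kinase Ilk (-0.70) fell among 25 focal adhesion genes, a share of 8% called, against 5.94% of all genes. The list had 1 call without Sos1/2DKO replicate 3 or WT replicate 3, and 0 without WT replicate 1 or 2 and with the Y-linked term. In the plasminogen and coagulation list, 4 of 19 fell and 1 rose (26.3% called, against 5.94% of all genes). Falls included Tfpi2, a protease inhibitor (-2.66), and Plat, the tissue plasminogen activator (-1.49), and thrombomodulin (Thbd, 1.69) rose. No member of this list was called without WT replicate 1 or with the Y-linked term. Has2, which makes hyaluronan, was at 5.94, 6.35 and 6.72 in Sos1/2DKO and at 9.02, 9.0 and 8.49 in WT (-2.50, SE 0.53). The largest fall of all named genes was that of Rgs16, which shortens G protein signals, with 5.69, 5.76 and 6.53 in Sos1/2DKO and 9.97, 9.16 and 8.68 in WT (-3.27, SE 0.56, adjusted p = 0.00759). Tagln2, Ankrd1 and Rgs16 held without any 1 array. Of the 6 settings that leave out an array, Tfpi2 was called in 5, Has2 in 3, Thbd in 1 and Plat in 0. Without WT replicate 1 the adjusted p of Has2 and Tfpi2 was 0.0793 and 0.0682.

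**Figure D3:**
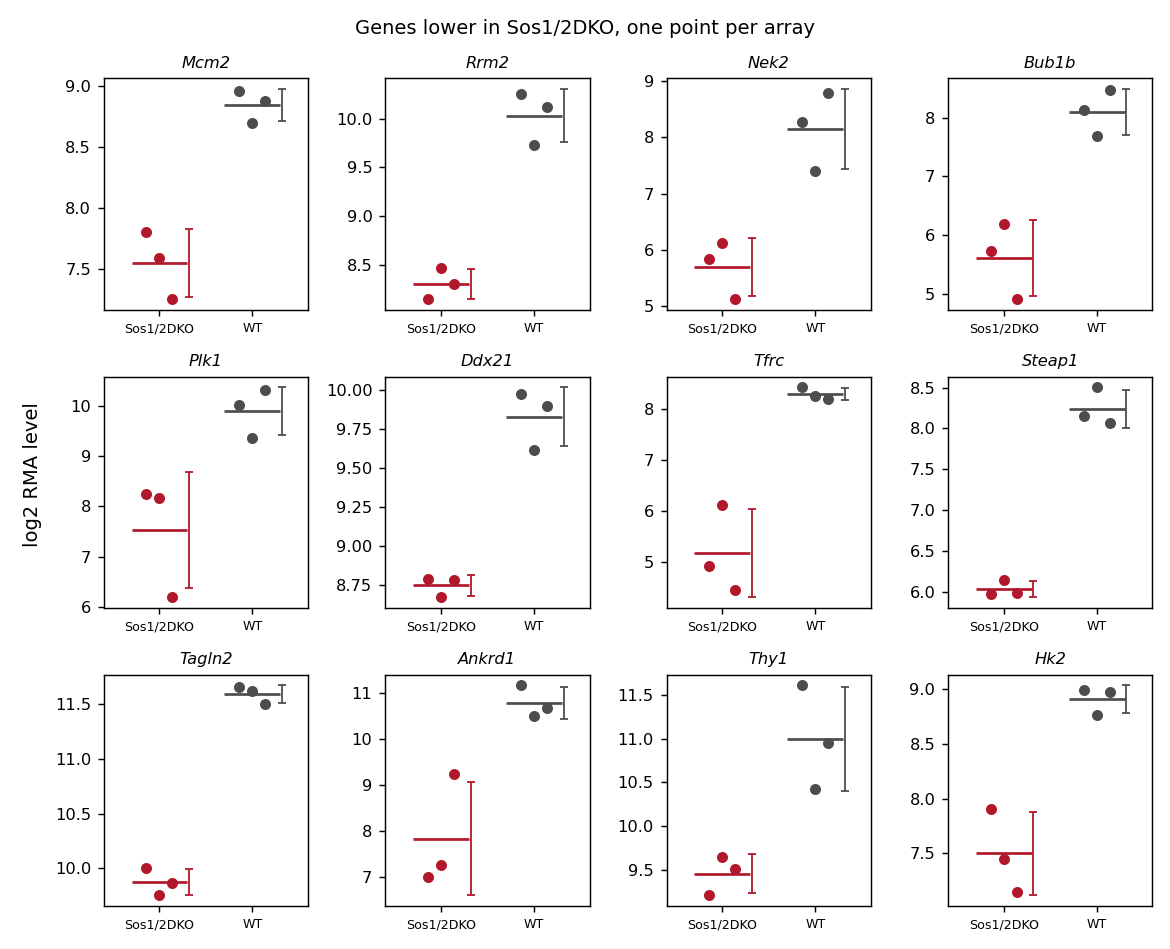
Log2 RMA level on each array of 12 genes that fell, Sos1/2DKO left and WT right in each panel, with the group mean as a line and its SD as a bar (n = 3). For Plk1 and Nek2 the Sos1/2DKO array furthest below the others is replicate 3.

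The largest rise among the called genes was that of Abi3bp, a matrix glycoprotein, with 11.31, 12.32 and 10.14 in Sos1/2DKO and 4.87, 4.94 and 8.88 in WT (5.02, SE 1.18, limma adjusted p = 0.0267). WT replicate 3 lay far above the other WT arrays, and Abi3bp was weak on 2 of 3 WT arrays, so the size of its rise is uncertain. It was called in 2 of the 6 settings that leave out an array (adjusted p = 0.119 without WT replicate 1). Ptprq, a receptor tyrosine phosphatase, was at 9.23, 9.10 and 9.88 in Sos1/2DKO and at 5.47, 5.04 and 6.37 in WT (3.78, SE 0.43, adjusted p = 0.00347). Nell2, a secreted glycoprotein, was at 10.13, 10.62 and 10.51 in Sos1/2DKO, against 6.54, 7.76 and 7.35 in WT (3.20, SE 0.33, adjusted p = 0.00306). Galnt13, a glycosyltransferase (3.74, weak on all 3 WT arrays), and the prostaglandin F receptor Ptgfr (2.97) rose too, and these 4 held without any 1 array. Scg2, a granin, spread from 5.78 to 11.62 across the Sos1/2DKO arrays and was weak on all 3 WT arrays.

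Among matrix genes, some glycoproteins and proteoglycans rose. Of 44 elastic fibre and matrix glycoprotein genes, 6 rose and 2 fell (18.2% called, against 5.94% of all genes, median 0.32). Elastin (Eln) was at 10.68, 11.89 and 10.63 in Sos1/2DKO and at 9.09, 8.85 and 9.48 in WT (1.92, SE 0.41, limma adjusted p = 0.0172), and the laminin chain Lamb1 (-1.29) and Fbln1 (-1.21) fell. Of 24 proteoglycan genes, 3 rose (12.5%), namely Fmod, which binds collagen fibrils (3.29, SE 0.86), Ogn (1.51) and Aspn (1.68). Of the 24, 20 were above 0, with a median of 0.55. Of the 36 collagen and collagen-processing genes 27 were above 0 (median 0.20) and 0 were called higher, as against 1.78% of all genes. Col18a1 (-1.52) and the enhancer of procollagen processing Pcolce2 (-1.36) fell (5.56% of the list called). In this list 1 fall was called without Sos1/2DKO replicate 1 or WT replicate 3 and 0 without any other array. Ogn held without any 1 array, whereas Fmod was called in 1 of the 6 settings that leave out an array, with an adjusted p of 0.152 without WT replicate 2. The glycoprotein list had 4 rises without Sos1/2DKO replicate 3, 1 without WT replicate 1 or 2 and 3 without WT replicate 3, and the proteoglycan list had 1 without WT replicate 1 or 2 and 5 without Sos1/2DKO replicate 3.

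Some secreted modulators of WNT, IGF and BMP signalling rose. Sfrp2, which binds WNT proteins, was at 9.01, 10.68 and 9.70 in Sos1/2DKO and at 6.09, 7.10 and 6.61 in WT (3.20, SE 0.38, limma adjusted p = 0.00347). Wnt16 (2.22, SE 0.36) and Dkk3 (1.66, SE 0.37) were the other called members of 26 WNT genes (11.5%, against 5.94% of all genes). Of 16 IGF axis genes, Igf1 (1.93) and the IGF-binding proteins Igfbp2, Igfbp4 and Igfbp5 rose and 0 fell (25% called). Igfbp2 was at 13.14, 12.90 and 12.86 in Sos1/2DKO, against 9.42, 9.15 and 10.05 in WT (3.43, SE 0.67), Igfbp4 rose by 2.21 and Igfbp5 by 2.39. Among 34 TGF-beta and BMP genes (11.8% called), the BMP antagonists Chrdl1 (3.06, weak on all 3 WT arrays) and Nog (0.97) rose. Tgfb1 (-1.05) and the procollagen protease Tll1 (-2.77, SE 0.45) fell. Sfrp2, Wnt16 and Tll1 held without any 1 array, and the IGF list had 0 calls without WT replicate 1 and 2 without WT replicate 3.

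Genes of retinoic acid handling moved both ways. The retinol carrier Rbp4 was at 8.73, 9.90 and 9.55 in Sos1/2DKO and at 5.41, 6.65 and 6.54 in WT (3.19, SE 0.51, limma adjusted p = 0.00647). Aldh1a1, a retinaldehyde dehydrogenase, was at 8.42, 8.75 and 7.59 in Sos1/2DKO and at 5.09, 5.39 and 5.69 in WT (2.86, SE 0.50). With Aldh1a7 (2.57), the retinaldehyde reductase Dhrs3 (1.88) and Rarres1 (1.53), 5 of 24 members rose. The retinoic acid-binding protein Crabp1 (-2.71) and the dehydrogenase Aldh1a3 (-1.06) fell. In this list 29.2% were called, against 5.94% of all genes. Crabp1 varied between 7.48 and 10.66 across the WT arrays. It was called in 1 of the 6 settings that leave out an array (adjusted p = 0.172 without WT replicate 1), while Rbp4 and Aldh1a1 held. Rises in the list numbered 3 without Sos1/2DKO replicate 1 or 2 and 2, 3 and 4 without WT replicates 1, 2 and 3.

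Guidance and adhesion molecules moved both ways. Of 39 semaphorin, ephrin, netrin and slit genes, 6 rose and 2 fell (20.5% called, against 5.94% of all genes, median 0.08). Sema3b, a secreted semaphorin, was at 9.74, 9.45 and 9.18 in Sos1/2DKO and at 7.24, 7.01 and 7.84 in WT (2.09, SE 0.29, limma adjusted p = 0.00507). Sema3c (1.78), Sema3d (2.67), Sema3f (1.91), Efna1 (1.24) and the netrin receptor Unc5c (0.61) rose, against falls of Sema3e (-1.39, SE 0.23) and Sema6d (-0.71). Of 32 cadherin and adhesion genes (18.8% called), 3 rose, including the giant cadherin Fat4 (1.88), and 3 fell, including Ncam1 (-1.80) and Pcdh19 (-1.62). Sema3b, Sema3e and Pcdh19 held without any 1 array, and the rises of the semaphorin and ephrin list numbered 3 and 4 without Sos1/2DKO replicates 1 and 3 and 1, 2 and 3 without WT replicates 1, 2 and 3.

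Smaller sets had a few called members. The share called was 15.8% of the FOXO, 20% of the imprinted and 20.7% of the chemokine list, against 5.94% of all genes. All 3 called FOXO targets rose and held without any 1 array and with the Y-linked term: Tob1, an antiproliferative factor, was at 8.99, 8.84 and 8.72 in Sos1/2DKO and at 7.74, 8.06 and 7.66 in WT (1.03, SE 0.15, limma adjusted p = 0.00507). The PI3K inhibitor Pik3ip1 (1.09, SE 0.18) and the stress gene Gadd45b (0.97, SE 0.16) were the others, and 16 of 19 members did not pass. Of 35 lysosome and autophagy genes, the protease Ctsf (1.14), the sulfatase Ids (1.07) and the sialidase Neu1 (0.73) rose (8.57%, against 5.94% of all genes called). That list had 1 call without WT replicate 1 or 3. Of 15 imprinted genes, the transcription factor Plagl1, at 10.77, 11.21 and 10.63 in Sos1/2DKO and 8.06, 8.90 and 8.61 in WT, rose (2.34, SE 0.38, adjusted p = 0.00652), as did Mest (2.92), and the amino acid transporter Slc38a4 fell (-2.37, SE 0.43). Plagl1 and Slc38a4 held without any 1 array. Mest was called in 1 of the 6 settings that leave out an array (adjusted p = 0.128 without WT replicate 1). Among 29 chemokine, acute-phase and complement genes, Cxcl15 (3.03, weak on all 3 WT arrays), Ptx3 (1.01), C1ra (1.56) and Il33 (0.60) rose. Ccl2 (-1.27) and the scavenger receptor Olr1 (-3.00) fell. Cxcl15 and Ptx3 held without any 1 array. Of the 6 settings that leave out an array, Ccl2 was called in 3, C1ra and Olr1 in 2 each and Il33 in 1. No interferon-stimulated gene (26 measured) and no HOX gene (27) was called by limma, with medians of 0.16 and 0.004.

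**Figure D4:**
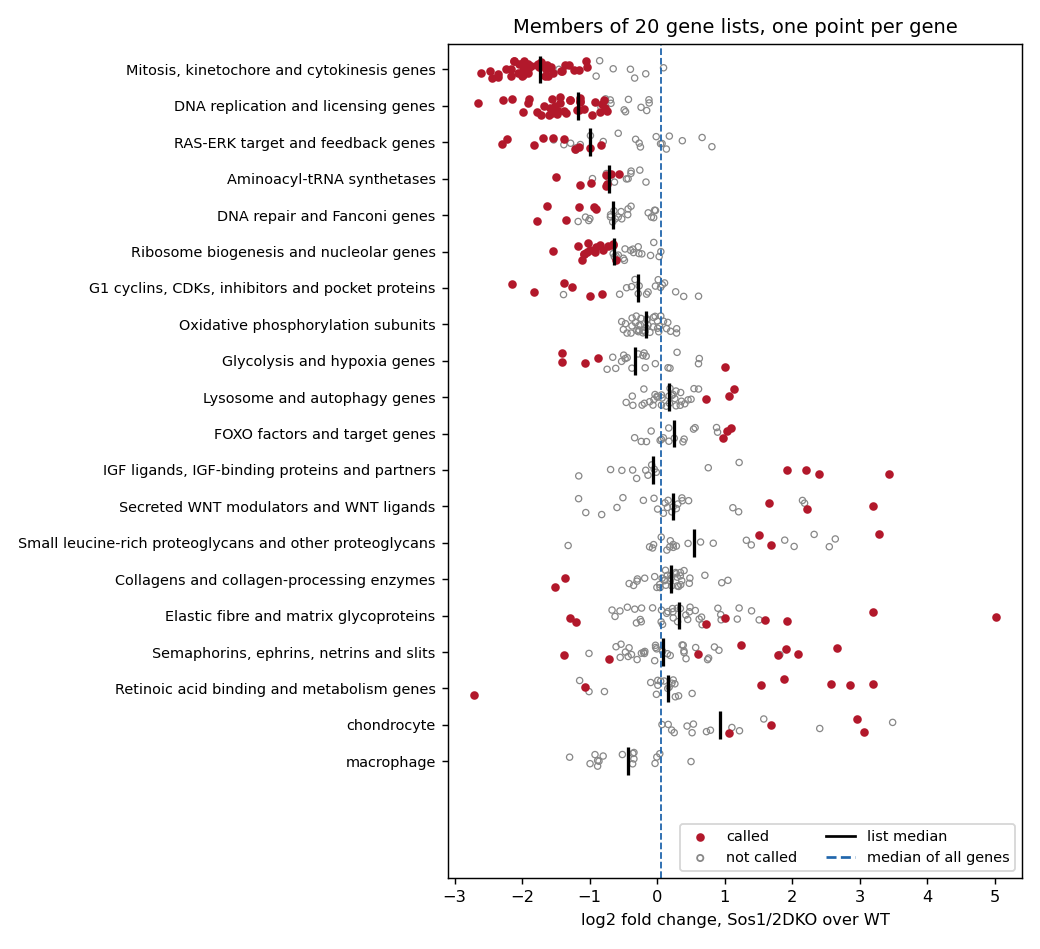
Log2 fold change, Sos1/2DKO over WT, of each member of 20 gene lists, with filled points for called genes, a black bar for the list median and a dashed line for the median of all genes at 0.055. Mitosis, replication and RAS-ERK target genes lie to the left, and the called proteoglycan, WNT, IGF and retinoid members mostly to the right.

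Some markers of the labelled cell type changed. Of 16 fibroblast markers 18.8% were called, against 5.94% of all genes, and 9 were above 0, with a median of 0.06. Thy1 was at 9.21, 9.64 and 9.50 in Sos1/2DKO and at 11.61, 10.42 and 10.95 in WT (-1.54, SE 0.33, limma adjusted p = 0.0183), Twist2 fell (-1.94), Osr1 rose (1.20) and 13 did not pass. Neither fall was called without Sos1/2DKO replicate 1, without WT replicate 1 or 3 or with the Y-linked term, and of the 6 settings that leave out an array Osr1 was called in 1, without Sos1/2DKO replicate 2. Of 18 cartilage markers, 4 rose (22.2%) and all 18 were above 0, with a median of 0.93. Comp, a cartilage matrix protein, was at 9.34, 9.59 and 6.42 in Sos1/2DKO and at 5.06, 5.75 and 5.37 in WT (3.06, SE 0.68). It was weak on 2 of 3 WT arrays and was called in 2 of the 6 settings that leave out an array. Hapln1 (2.96, weak on all 3 WT arrays), Sox6 (1.69) and Col9a1 (1.07) rose too. The mean of the 18 was 8.03, 7.75 and 7.04 in Sos1/2DKO and 6.39, 6.30 and 6.43 in WT, so replicate 3 was the Sos1/2DKO array nearest to WT. Leaving out Sos1/2DKO replicate 1 or WT replicate 1 or 3 left 1 called, leaving out WT replicate 2 left 2, and the Y-linked term left 0 at a median of 0.70. The 10 osteoblast markers had a median of 0.34 with 0 called.

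Other cell types were checked in the same way, beside the 5.94% of all genes that were called. Calls covered 15.4% of the epithelial, 20% of the neural, 18.2% of the endothelial and 9.09% of the adipocyte markers. The 16 macrophage markers averaged 5.37, 6.17 and 5.98 in Sos1/2DKO and 5.77, 7.42 and 5.84 in WT, with WT replicate 2 highest, 0 called and a median of -0.44. Their part in the falls of Ccl2 and Olr1 was not tested. With the macrophage mean in the fit, 45 of 52 mitosis members were called. No skeletal muscle marker of 20 was called, and 10 were above and 10 below 0 (median 0.02). Acta1, among those below 0, stood at 8.58, 6.46 and 8.86 in Sos1/2DKO and at 11.12, 9.64 and 9.53 in WT (limma adjusted p = 0.071). Of 13 epithelial markers Krt18 (-1.99) and Krt19 (-1.34) fell, 11 did not pass and 8 were above 0 (median 0.06), and 1 fall was left without WT replicate 1 or 2. Of 15 neural markers Nes (-2.39, SE 0.32) and Tubb3 (-1.40) fell, Syt1 rose (0.99) and 12 were not called. The neural median was 0.04, or -0.08 with cyclic loess. The rise of Syt1 was not called without Sos1/2DKO replicate 3 or WT replicate 1 or 3. Of 11 endothelial markers Erg rose (2.43), Emcn fell (-2.14) and 9 did not pass (median 0.15), with Erg not called without WT replicate 1 and Emcn not called without Sos1/2DKO replicate 1 or WT replicate 2 or 3. Plin4, a lipid droplet protein, was the called adipocyte marker of 11 (1.66, SE 0.24), and Pparg stood at 8.28, 9.27 and 7.86 in Sos1/2DKO and 6.65, 6.45 and 7.51 in WT without a call (adjusted p = 0.101). None of the Y-linked genes Eif2s3y, Kdm5d and Uty was called, and 0 of the 32 measured genes of chromosome Y were. The part of Y-linked differences in the other results was not tested beyond the fits with that term.

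Genes next to the deleted loci were looked at as well, beside the 5.94% of all genes that were called. Their counts are too small to set them apart from other genes. Of the 10 measured neighbours on each side of Sos1 on chromosome 17, Tmem178 rose (0.96), Gemin6 fell (-1.03) and 18 did not pass. Around Sos2 on chromosome 12, Pole2, a DNA polymerase subunit of the replication list, fell (-1.47) and 19 did not pass. These names were chosen after their values were seen. The share of genes called lay between 4.12% on chromosome 7 and 8.59% on chromosome 3.

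The single knockouts place the double knockout values. Against Sos1KO, 1 gene was called (0.00513%), Sfrp2, with 9.80 ± 0.84 in Sos1/2DKO and 6.55 ± 0.47 in Sos1KO (SD, n = 3 each, 3.25, SE 0.38, limma adjusted p = 0.0214). That count was between 0 and 10 when single arrays were left out. Against Sos2KO, 1197 genes were called (6.14%), with 650 higher (3.33%) and 547 lower (2.8%). This count was 339 and 443 without Sos2KO replicates 1 and 2, and 1660 without Sos2KO replicate 3. All 3 Sos2KO arrays carried the bacterial poly-A control transcripts used in labelling (Dap at 8.16, 8.29 and 6.01). So did Sos1/2DKO replicate 1 (7.82) and Sos1KO replicate 3 (9.29). With a term for these transcripts in the fit, 289 genes were called against Sos2KO and 1 against Sos1KO. Both comparisons share the Sos1/2DKO arrays with the comparison against WT, so their values are set side by side here without a test of agreement.

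Dusp6 had a log2 fold change of -2.22 against WT, -0.93 against Sos1KO (not called) and -1.67 against Sos2KO (called). For Myc the values were -1.70, -0.77 and -1.69, and for Nras -1.22, -0.97 and -1.06, with the differences from WT and Sos2KO called and those from Sos1KO not. Rrm2 differed by -1.73 from WT, by 0.14 from Sos1KO and by -1.06 from Sos2KO. Steap1 was at -2.21, -0.95 and -2.07 against WT, Sos1KO and Sos2KO. Among the rises, Ptprq had 3.78, 1.69 and 3.87, Rbp4 3.19, 1.43 and 3.03, Fgf18 2.51, 0.48 and 2.72, and Igfbp5 2.39, 2.37 and 3.05 in the same order. The Sos1KO differences of these genes did not pass, which does not show that the groups were alike.

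**Figure D5:**
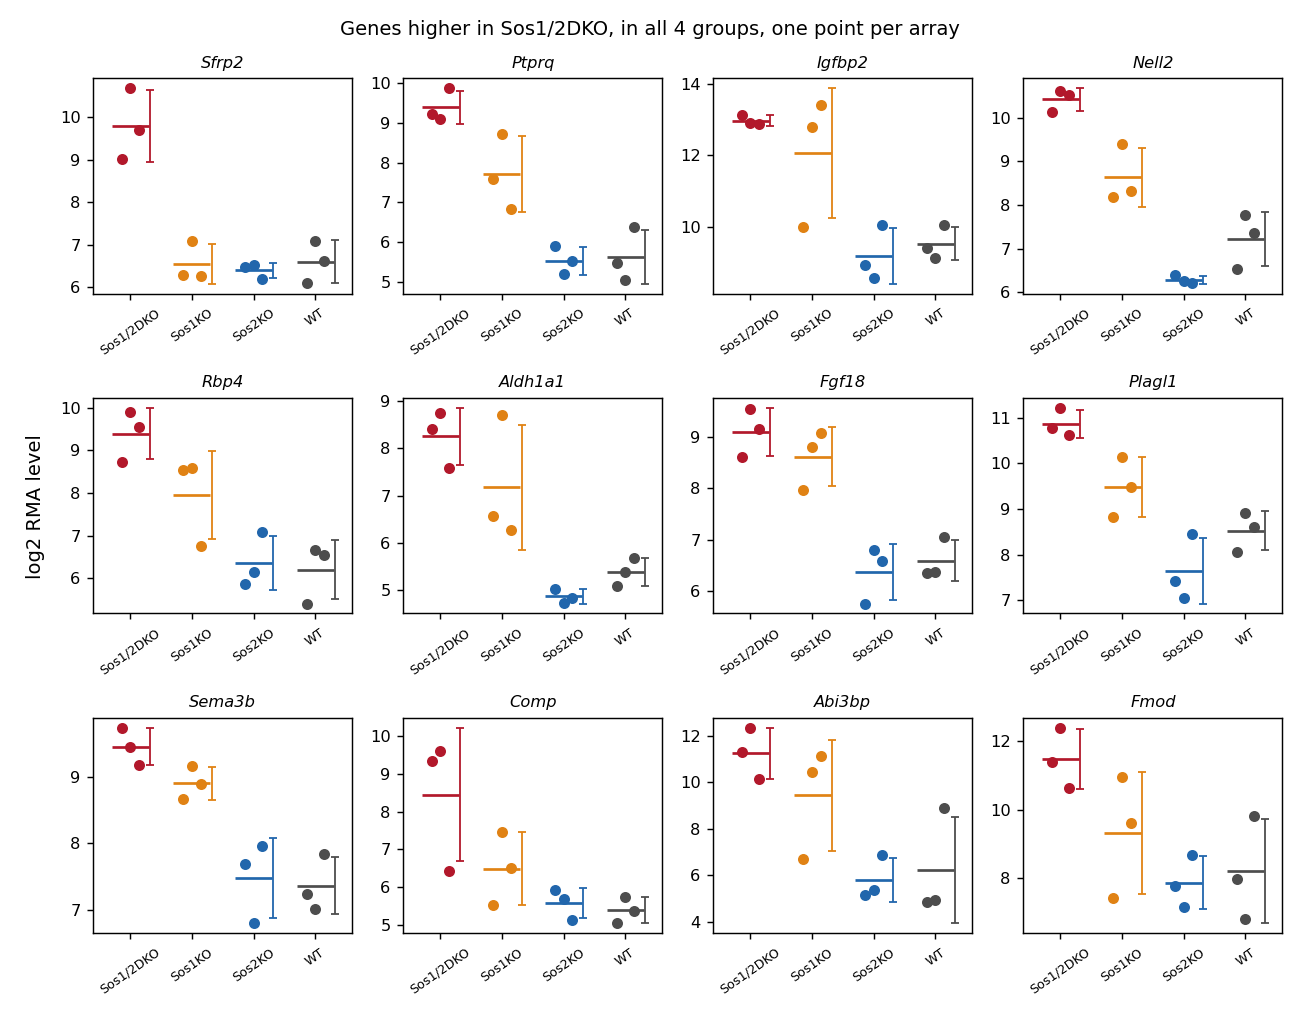
Log2 RMA level on each array of 12 genes that rose, in Sos1/2DKO, Sos1KO, Sos2KO and WT from left to right, with the group mean as a line and its SD as a bar (n = 3). Sfrp2 is high on the Sos1/2DKO arrays alone. For genes including Ptprq, Nell2, Aldh1a1, Fgf18 and Sema3b the 3 Sos1KO arrays also lie above every Sos2KO and WT array.

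The authors' deposited table for this comparison lists 2507 probe sets, 927 higher and 1580 lower, down to an adjusted p of 0.25, and 286 of them have an adjusted p under 0.05. Its fold changes equal the differences of group means of the value table to within 6.13e-09, so scale and direction are known. In the authors' deposited enrichment tables, the term with the smallest p among the higher probe sets was extracellular matrix organization, with 38 genes of 271 (log10 p of -12.9), ahead of ossification with 45 of 382 (-12.3). Among the lower ones the term with the smallest p was Cell Cycle, with 190 genes of 551 (log10 p of -87.5), ahead of Cell Cycle Checkpoints with 100 of 226 (-57.4) and mitotic cell cycle process with 166 of 645 (-55.3). DNA replication had 88 of 243 (-41.9), Metabolism of RNA 118 of 505 (-34.6) and ribonucleoprotein complex biogenesis 106 of 439 (-32.4) in the authors' deposited tables.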

How the data were processed

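RNA from 12 cultures was hybridised to Affymetrix arrays, and the 6 arrays of Sos1/2DKO and WT were grouped by sample title. The authors deposited 1 table of log2 values for 29129 probe sets, made with RMA in R 3.6.3 per the submitters' processing notes, and a table of differential probe sets whose log2 fold change, p-value, t score and B score are named per the file headers. Their deposited enrichment tables give p-values and q-values on a log10 scale per the file headers. The deposited values correlate positively across arrays and match that table in scale and sign. The aligner and genome build of the probes were not given in the sources used here.

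The platform annotation gave 1 symbol to 19572 probe sets, several to 0 and none to 9557, and the RefSeq table of GRCm38.p6 holds all 19572 symbols. For 55 genes with several probe sets the highest mean was kept, which left 19505 genes. The fit used limma 3.58.1 in R 4.3.3, with means of 4 groups (8 residual degrees of freedom, empirical Bayes, two-sided, Benjamini-Hochberg over all genes). Precision is limited by the array number. The scripts were tested on simulated data.

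The members and the 55 gene lists (44 of pathways, 11 of cell type markers, 1289 of 1395 members measured) were chosen with earlier results of these data known, so their counts describe and support nothing independently. Named genes are Sos1 and Sos2, the 20 largest rises and the 20 largest falls among called genes without overlap between arrays (predicted, olfactory, vomeronasal and receptor segment genes and small RNAs left out), all called list members, and the 2 smallest adjusted p-values of lists with fewer calls. Replicate numbers do not pair the cultures: deviations of equally numbered Sos1/2DKO and WT arrays correlated with r of 0.156, -0.054 and -0.292 across genes. Alternatives were median centring, cyclic loess, all probe sets, a filter on dim genes, another prior, array weights, a replicate block, the 2 groups alone, terms for the spike-in, Y-linked and macrophage levels, and each array left out. A high-GC background term and a fit of arrays with Y-linked signal were added after seeing the data.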

Additional observations from a re-analysis of the deposited data

Results flagged for a closer look

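Bacterial poly-A control transcripts, which are added to RNA during labelling and take no part in the comparisons, were present on Sos1/2DKO replicate 1. Dap was at 7.82 there, against 3.92 and 3.95 on the other Sos1/2DKO arrays and 3.89 to 3.98 on the WT arrays. Phe was at 5.83, Thr at 6.24 and Lys at 4.85 on the same array, each above every WT array. Leaving this array out gave 789 calls.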

How the results depend on the processing

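Across the alternatives, Sos1/2DKO against WT gave 1060 genes with cyclic loess, 1154 with median centring, 1210 without dim genes, 872 over all probe sets, 1095 with a trended robust prior, 868 with the spike-in term, 877 with the macrophage term and 963 with the high-GC term, all within 1.5 times the main count. It moved further to 1799 with array weights, 747 with the 2 groups alone, 404 with the Y-linked term, 377 in arrays without the spike-in, 34 among arrays with Y-linked signal (1 WT array, assumed to vary like the other groups) and 3829 at an adjusted p under 0.25. Leaving out single arrays gave 268 to 1504. With the replicate block, which shares only a number, it was 925. The single call against Sos1KO was 0 over all probe sets, with array weights, among spike-in-free arrays, with the Y-linked or high-GC term and with the 2 groups alone, and 0 to 10 without single arrays. Against Sos2KO the count was 781 with array weights, 289 with the spike-in term, 682 with the Y-linked term, 220 with the high-GC term, 466 with the 2 groups alone, 4618 at the wider threshold and 339 to 1660 without single arrays. Of the 264 named called genes, 0 reversed under any of these settings, and 14 to 264 stayed called. The reversed values were those of genes that were not called and of list medians beyond 1 SD of the arrays: Eif2s3y (-0.092) and Uty (-0.60) with the Y-linked term, Uty (-0.62) and Slc4a1 (-0.064) among arrays with Y-linked signal, Slc4a1 without Sos1/2DKO replicate 3 (-0.072, with 0.279 without replicate 1 as its other extreme), and the list medians of RGS genes with cyclic loess (-0.006) and of Y-linked genes with the Y-linked term (-0.47) and among arrays with Y-linked signal (-0.41). Counted without regard to that spread, the medians of 18 of 55 lists changed sign under at least 1 setting, 16 of them from between -0.11 and 0.16. The macrophage median of -0.44 was 0.13 among arrays with Y-linked signal. The cause was not tested, beyond the fewer arrays or genes that some settings hold.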
